A study of Homo sapiens with 12 samples.

Results

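The genes described here are 40 genes of glycolysis and of the response to low oxygen, taken by symbol from a fixed list and all found among the 26334 genes of the table. They comprise 17 glycolytic enzymes, 3 PFKFB enzymes, 4 transporters of glucose or lactate, 6 genes of the HIF (hypoxia-inducible factor) pathway and 10 hypoxia-responsive genes. Poly(A) RNA was sequenced from HK-2 cells, an immortalised human proximal tubule line, that carried a doxycycline (Dox)-inducible PRCC-TFE3 gene, the fusion of PRCC to the transcription factor gene TFE3 that drives a form of translocation renal cell carcinoma. The 4 groups of 3 libraries were vehicle (DMSO), Dox, MSC2530818 at 100 nM without Dox, and Dox with MSC2530818, each after 48 h. MSC2530818, called the inhibitor below, blocks CDK8 and CDK19, the kinases of the Mediator complex that links transcription factors to RNA polymerase II. Cells of all 4 groups carried the inducible construct and grew in medium with puromycin and blasticidin, and the labels describe the 3 libraries of a group as independent biological replicates. Dox was never given to cells that lack the fusion gene, so the action of PRCC-TFE3 and that of the drug cannot be told apart. The labels give neither the Dox concentration, nor the oxygen level, nor whether the line was 1 clone.

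Glycolysis splits glucose into pyruvate, which lactate dehydrogenase can turn into lactate, and the PFKFB enzymes make and remove the signalling sugar phosphate that activates its main control point, phosphofructokinase. The HIF alpha subunits HIF1A and EPAS1 are hydroxylated by the EGLN enzymes when oxygen is present and are then removed through VHL, and in low oxygen they pair with ARNT and raise transcription of glycolytic and other genes. Loss of VHL sets this pathway off in clear cell carcinoma of the proximal tubule. MiT/TFE factors such as TFE3 bind E-boxes with the letters CACGTG, and HIF binds the shorter cores ACGTG and GCGTG. CDK8 has been described as a coactivator of HIF1A target genes in cancer cells. HIF alpha proteins are controlled mainly by their stability, which RNA levels do not show.

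The libraries held FPKM (fragments per kilobase of transcript, scaled to library size) sums of 429208 to 473950, and their absolute depth is unknown because the table holds no read counts. TFE3, the check of the induction, had group means of 35.8 FPKM in vehicle, 149.7 with Dox, 27.8 with the inhibitor and 84.2 with both. Its Dox rise on the log2(FPKM + 1) scale was 2.04 without and 1.57 with the inhibitor, a difference of -0.47 that itself passed the test (adjusted p = 0.0229), so the 2 Dox comparisons differ in TFE3 RNA as well. Of 6 renal epithelial markers, PAX8, KRT8, KRT18 and EPCAM reached an FPKM of 1, and their summed level was lower with Dox (494 to 518) than in vehicle (606 to 706) and was highest with the inhibitor alone (723 to 841). Of 9 proximal tubule markers, GGT1 (36.3 to 51.2 FPKM) was well above an FPKM of 1, SLC5A2 reached 1.38 at most, and LRP2, CUBN, ANPEP, AQP1, SLC34A1, SLC22A6 and HNF4A stayed below 1, so the label proximal tubule rests on few of its defining markers here. Of the fibroblast markers only COL1A1 (3.3 to 4.82 FPKM) exceeded 1, and the distal tubule markers stayed below 1. CD68, a lysosomal gene listed as a leukocyte marker, ran from 25.4 to 58.4 FPKM and was highest with Dox, while the defining leukocyte markers PTPRC and CD3E and all endothelial markers stayed below 1. The part of these marker differences in the results was not tested. In bulk RNA, fewer cells of a kind and less RNA per cell cannot be told apart.

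The promoters of ENO2, EPAS1, P4HA1 and HK2, all higher with Dox, are shown because they carry letters that TFE3 or HIF are known to bind. They were picked after their values were seen, and PFKM, LDHB, ADM and KDM3A also rose with Dox and held a hypoxia core. Each is the RefSeq window of 300 bases, from 250 before to 50 after a start site (GRCh38.p14), printed 5′ to 3′ on the strand of the gene. Capitals mark exact matches, on either strand, of the E-box or of the shorter HIF cores, so a core on the opposite strand is printed as its complement read backwards. ENO2 lies at chr12:6914330-6914629 (plus strand), EPAS1 at chr2:46297157-46297456 (plus), P4HA1 at chr10:73096817-73097116 (minus) and HK2 at chr2:74834920-74835219 (plus, 1 of 2 windows).
ENO2: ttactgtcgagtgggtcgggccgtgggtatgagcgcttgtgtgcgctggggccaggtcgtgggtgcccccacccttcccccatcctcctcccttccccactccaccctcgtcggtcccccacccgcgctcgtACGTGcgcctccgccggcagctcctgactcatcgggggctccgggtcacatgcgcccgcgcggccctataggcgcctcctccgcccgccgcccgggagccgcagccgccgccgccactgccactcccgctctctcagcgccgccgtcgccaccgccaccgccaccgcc
EPAS1: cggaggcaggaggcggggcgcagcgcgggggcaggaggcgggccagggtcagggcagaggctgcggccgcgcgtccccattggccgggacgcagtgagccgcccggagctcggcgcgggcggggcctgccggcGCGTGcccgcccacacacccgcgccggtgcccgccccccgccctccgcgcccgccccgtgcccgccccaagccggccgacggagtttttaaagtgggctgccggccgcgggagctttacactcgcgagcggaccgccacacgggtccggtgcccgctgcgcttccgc
P4HA1: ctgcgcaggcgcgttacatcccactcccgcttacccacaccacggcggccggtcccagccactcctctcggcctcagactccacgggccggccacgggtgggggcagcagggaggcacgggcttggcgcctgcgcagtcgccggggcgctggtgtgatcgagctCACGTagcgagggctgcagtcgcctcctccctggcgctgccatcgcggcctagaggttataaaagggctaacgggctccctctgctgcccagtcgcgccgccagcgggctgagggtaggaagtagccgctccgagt
HK2: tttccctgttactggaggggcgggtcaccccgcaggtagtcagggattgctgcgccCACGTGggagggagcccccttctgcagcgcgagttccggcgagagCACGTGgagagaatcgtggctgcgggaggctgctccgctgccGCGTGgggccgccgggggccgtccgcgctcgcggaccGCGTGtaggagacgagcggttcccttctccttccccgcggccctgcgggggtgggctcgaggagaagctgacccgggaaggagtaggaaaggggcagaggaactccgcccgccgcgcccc

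ENO2 held 1 ACGTG 118 bases before its start (position -118), EPAS1 1 GCGTG at -117 and P4HA1 1 ACGTG at -86. The printed HK2 window held CACGTG at -194 and -149 and GCGTG at -107 and -70. In all, 35 of the 40 members matched the RefSeq table, with 64 windows, and PFKFB2, SLC2A3, SLC16A1, VHL and NDRG1 did not match. ACGTG or GCGTG stood in 67.2% of the 64 member windows and in 48.4% of all 35116 windows of the table, and CACGTG in 12.5% (8 windows) and 7.26%. ACGTG also lies inside every CACGTG, so these shares overlap, and windows of 1 gene can overlap too. The 16 windows of members that rose with Dox held ACGTG or GCGTG in 68.8% and CACGTG in 6.25%, against 66.7% and 14.6% of the 48 windows of other members. The extended letters TCACGTGA stood in 0 of the 64 and in 0.98% of all windows. These matches describe letters only.

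Of the 40 genes, 35 passed the filter of an FPKM of at least 1 in 3 of the 12 libraries and were tested among 12649 genes. ALDOC, HIF3A, EGLN3, CA9 and CA12 did not pass, and their highest value in any library was 0.87 FPKM. CA9, a carbonic anhydrase widely used as a marker of HIF activity, was listed at 0 in 11 libraries and at 0.07 FPKM in Dox with inhibitor 2. EGLN3, a HIF prolyl hydroxylase that is itself a HIF target, lay between 0.05 and 0.31 FPKM. At the other end GAPDH ran from 2143 to 3750 FPKM, and the 17 glycolytic enzymes together made up 1.87% to 2.46% of the library sums. SLC2A3 passed the filter only through the 3 Dox libraries, so its difference there was built into the choice. A call below means a two-sided Benjamini-Hochberg adjusted p under 0.05 from a limma model of all 12 libraries and all tested genes, and changes are differences of log2(FPKM + 1), which understate low genes.

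**Figure D1:**
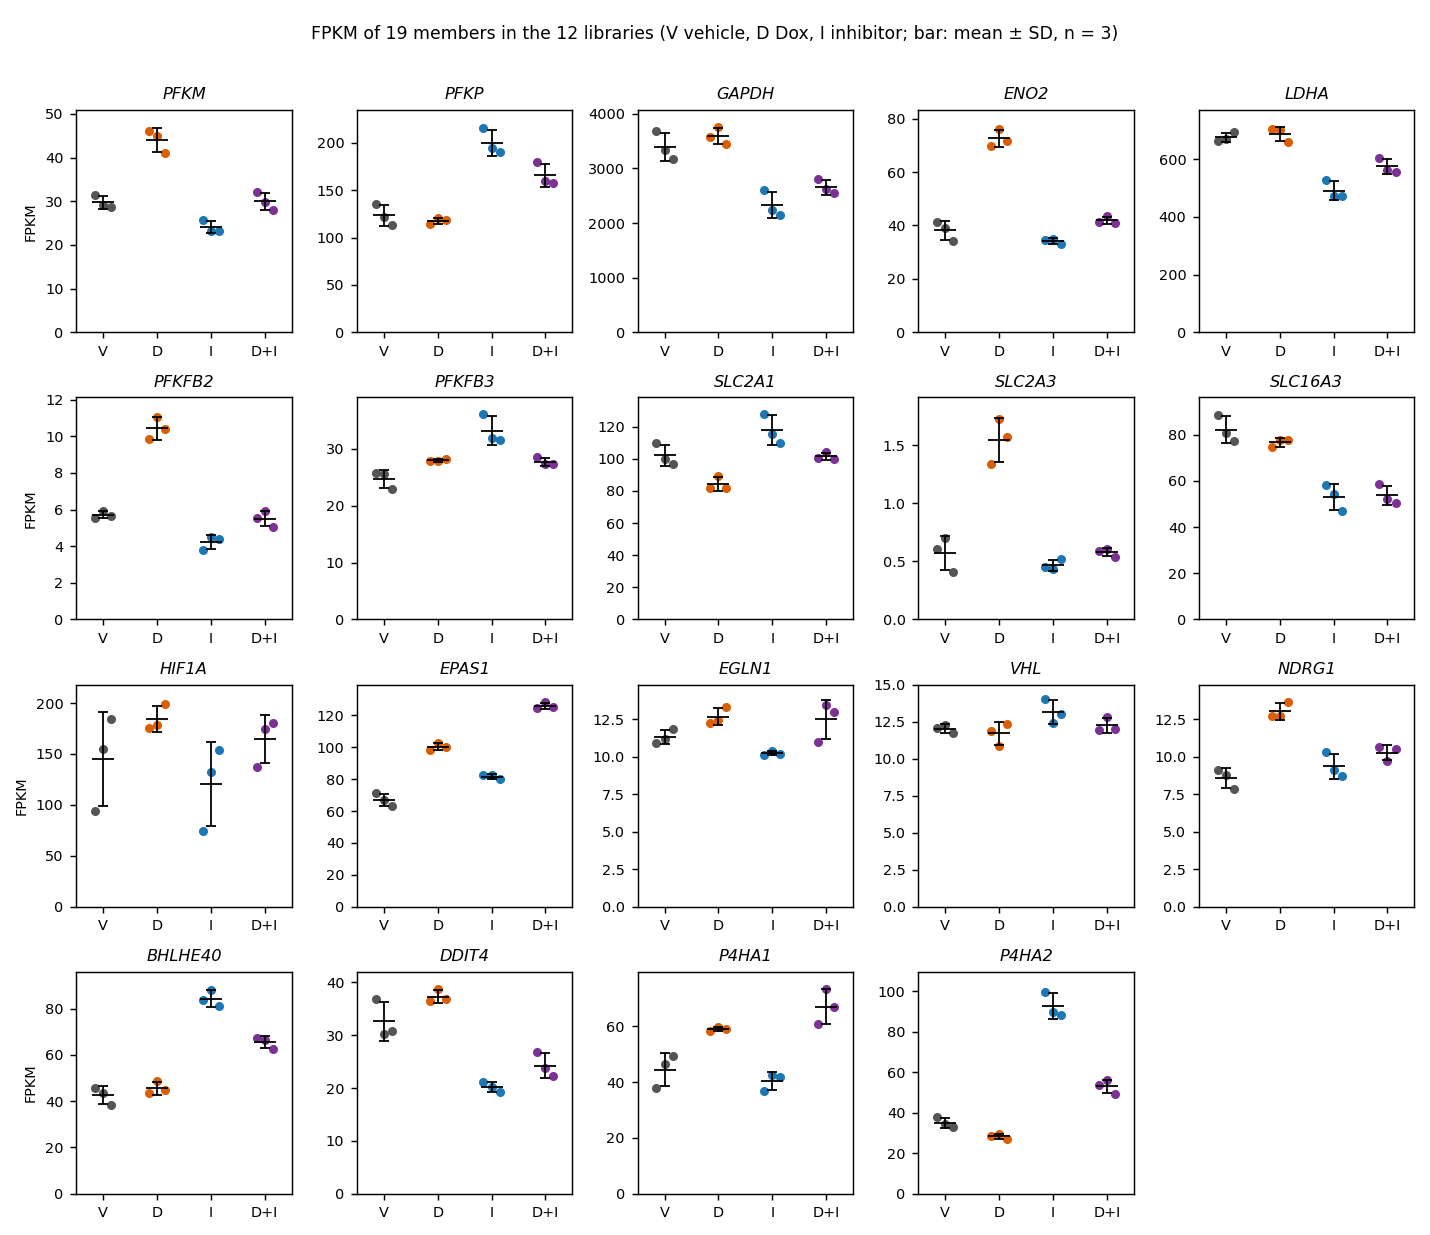
FPKM in each library (vertical axes from 0, 1 point per library, coloured by group, bars at the mean ± SD of 3 libraries) for 19 members, where V is vehicle, D is Dox, I is the inhibitor. ENO2, EPAS1 and PFKM are higher with Dox than in vehicle, and P4HA2, PFKP and BHLHE40 are higher with the inhibitor.

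Dox was compared with vehicle, which asks what the module does when the fusion gene is induced. A minority of the module rose, among them the neuronal-type enolase ENO2, the phosphofructokinase activator gene PFKFB2, the muscle-type phosphofructokinase PFKM, the HIF subunit EPAS1 and the stress gene NDRG1, while GAPDH, ENO1 and PKM, the enzyme genes with the highest FPKM, were not called. Of the 35 tested members 11 were called higher (10 without SLC2A3) and 2 lower, against 10.6% higher and 7.31% lower of all tested genes (17.9% in either direction). The median change of the members was 0.14, beside 0.04 over all tested genes. By role, 4 of 16 glycolytic enzymes, 1 of 3 PFKFB enzymes, 1 of 4 transporters, 1 of 4 HIF pathway genes and 4 of 8 hypoxia-responsive genes were higher, and 1 transporter and 1 hypoxia-responsive gene were lower. In 23 alternative analyses 8 of the 13 calls held each time. Some of these alternatives called further members higher, PKM among them. Log2 changes over all genes ran against transcript GC content (rank correlation -0.38 over 11996 genes, described without a test), and removal of that trend together with length gave 15 members higher and 2 lower, while the calls over all genes also grew, from 17.9% to 26.9%.

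With the inhibitor present in both groups, Dox again raised EPAS1, P4HA1 and KDM3A, and 11 members were called higher and 4 lower, against 12.2% and 6.06% of all tested genes (18.2% in either direction). The median change was 0.14 for the members and 0.08 for all genes. Median-ratio scaling, which sets libraries to a common middle gene, left 6 members higher and 5 lower (15% of all genes called). Over all genes it moved the share of calls that were higher from 66.7% to 37.2%, and from 59.2% to 44.9% without the inhibitor. The count of 15 members was 7 without Dox plus inhibitor 2 and 9 without inhibitor 2, and 8 when only these 2 groups were fitted. The share of all genes called also fell from 18.2%, to 9.84%, 10.7% and 8.69% in that order. The rank correlation of the log2 changes with GC content was -0.56 here, and removal of that trend with length gave 12 members higher and 6 lower (19.4% of all genes called) and ended the calls of LDHA, PFKFB2, SLC16A1 and EGLN1. The 2 Dox comparisons use different libraries but 1 shared estimate of spread, and whether a gene's 2 Dox changes differ was tested by the interaction.

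**Figure D2:**
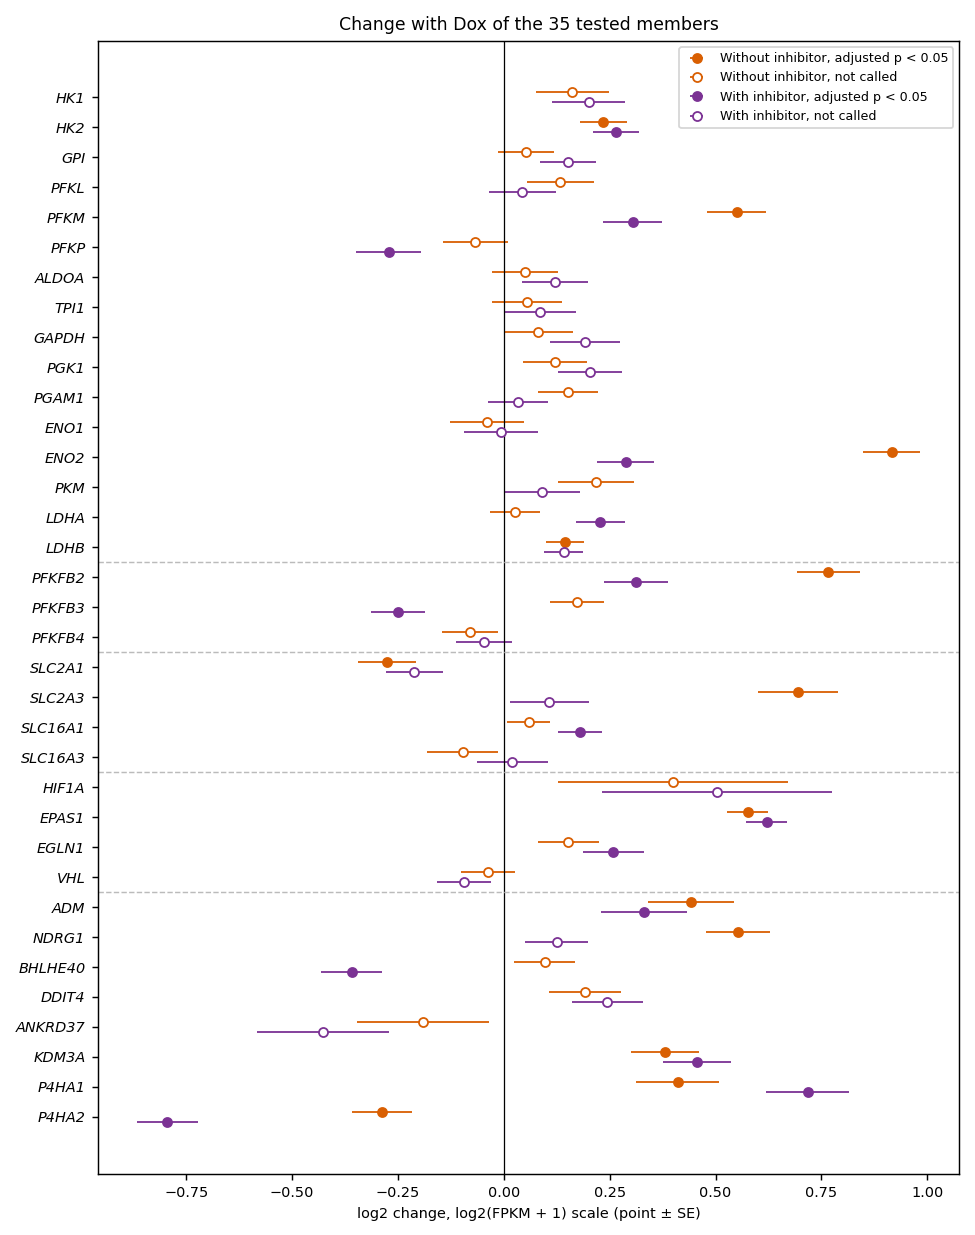
Log2(FPKM + 1) change with Dox for the tested members, without and with the inhibitor, with standard errors from the limma model and called changes marked. EPAS1 lies near 0.6 in both comparisons, whereas ENO2 lies at 0.92 without and at 0.29 with the inhibitor.

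The inhibitor was compared with vehicle and, in Dox-treated cells, with Dox alone, which asks what blocking CDK8 and CDK19 does to these genes. It changed members in both directions. The platelet-type phosphofructokinase PFKP, BHLHE40 and the collagen prolyl hydroxylase P4HA2 rose, and GAPDH, LDHA, the lactate exporter SLC16A3 and DDIT4 fell, each in both comparisons. Without Dox 7 members were called higher and 11 lower, against 11.7% higher and 26.3% lower of all tested genes (38% in either direction). With Dox 6 were called higher and 13 lower (12 without SLC2A3), against 11.3% and 20.8% (32.1% in either direction). The member medians were -0.13 and -0.07, near the all-gene medians of -0.12 and -0.08. Median-ratio scaling shifted the all-gene median without Dox from -0.12 to -0.01. It gave 9 members higher and 7 lower without Dox (32% of all genes called) and 6 and 12 with Dox (28.9% of all genes called). It moved the share of all calls that were higher from 30.8% to 54.7% without Dox and from 35.3% to 53.3% with it.

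**Figure D3:**
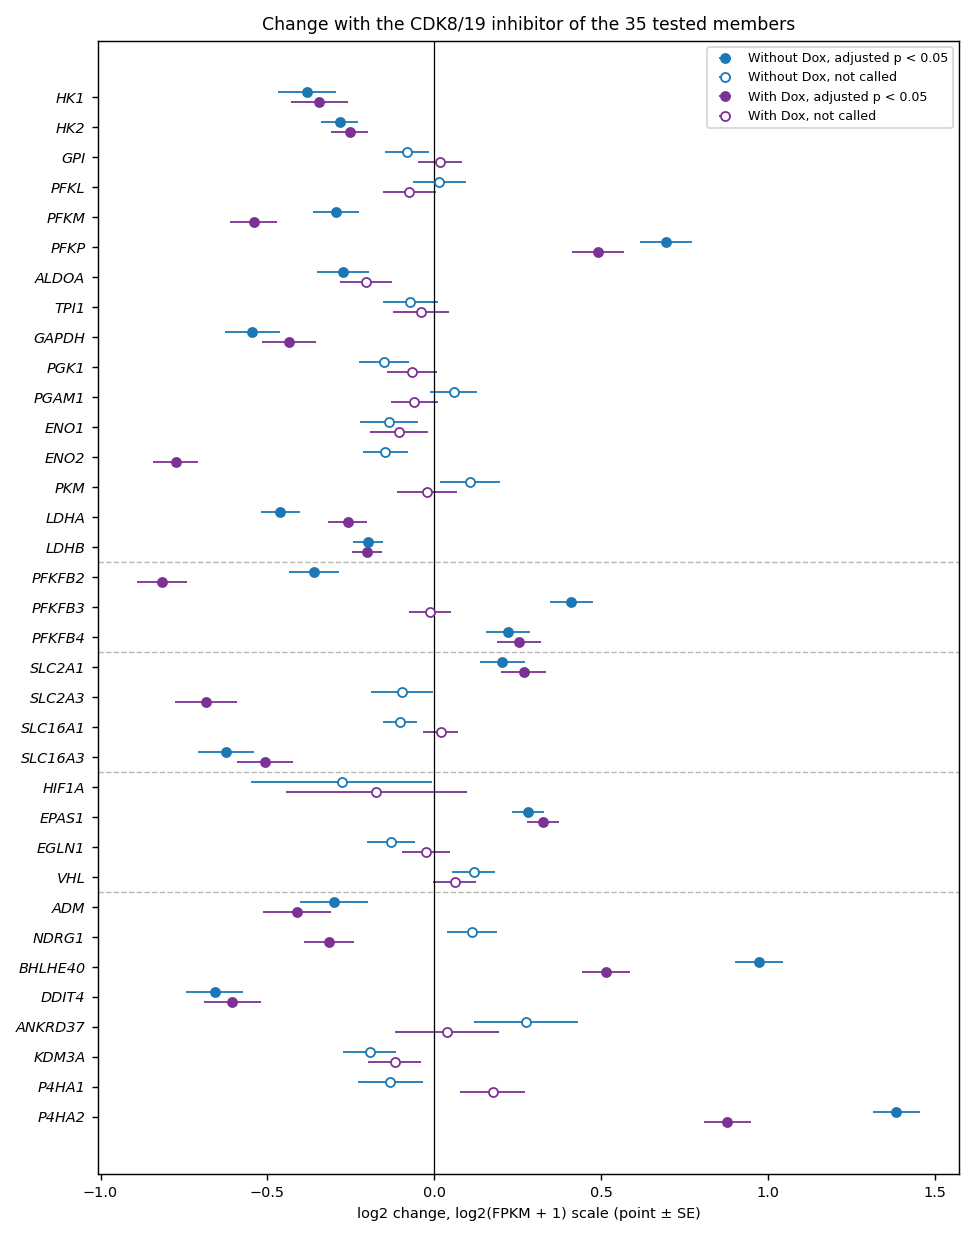
Log2(FPKM + 1) change with the inhibitor for the tested members, without and with Dox, with standard errors and called changes marked. P4HA2 (1.38 and 0.88) lies farthest to the higher side in both, and SLC16A3 and DDIT4 lie below -0.5 in both.

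The interaction, the difference between the Dox changes in inhibitor-treated and untreated cells, was called for 5 of the 34 tested members other than SLC2A3, all negative, against 0.909% of all tested genes called positive and 1.91% negative (2.82% in either direction). They were ENO2 (-0.63 ± 0.10 SE, adjusted p = 0.00489), P4HA2 (-0.51 ± 0.10, adjusted p = 0.0219), BHLHE40 (-0.46 ± 0.10, adjusted p = 0.036), PFKFB2 (-0.45 ± 0.11, adjusted p = 0.0465) and PFKFB3 (-0.42 ± 0.09, adjusted p = 0.0295). SLC2A3 also passed the threshold (-0.59), but because it was tested only through its Dox libraries that value is a description and is not read against the share of all genes. A negative value has 2 forms here. For ENO2, PFKFB2 and SLC2A3 it was a smaller Dox increase, and for P4HA2, BHLHE40 and PFKFB3 it was a lower Dox change in cells where the inhibitor alone had raised the gene. Only the ENO2 call held in all 22 alternatives. The P4HA2 call ended without any 1 of DMSO 2, Dox 1, Dox 2 or Dox plus inhibitor 3 (-0.51 to -0.46). The PFKFB3 call ended without any 1 of DMSO 2 or 3, any Dox library, inhibitor 2 or Dox plus inhibitor 2 or 3 (-0.45 to -0.37). Leaving out any library but inhibitor 1 ended the PFKFB2 call (-0.50 to -0.40) and any but DMSO 1 the BHLHE40 call (-0.49 to -0.38). The median interaction over the 35 members was 0.03, and over all tested genes 0.05.

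**Figure D4:**
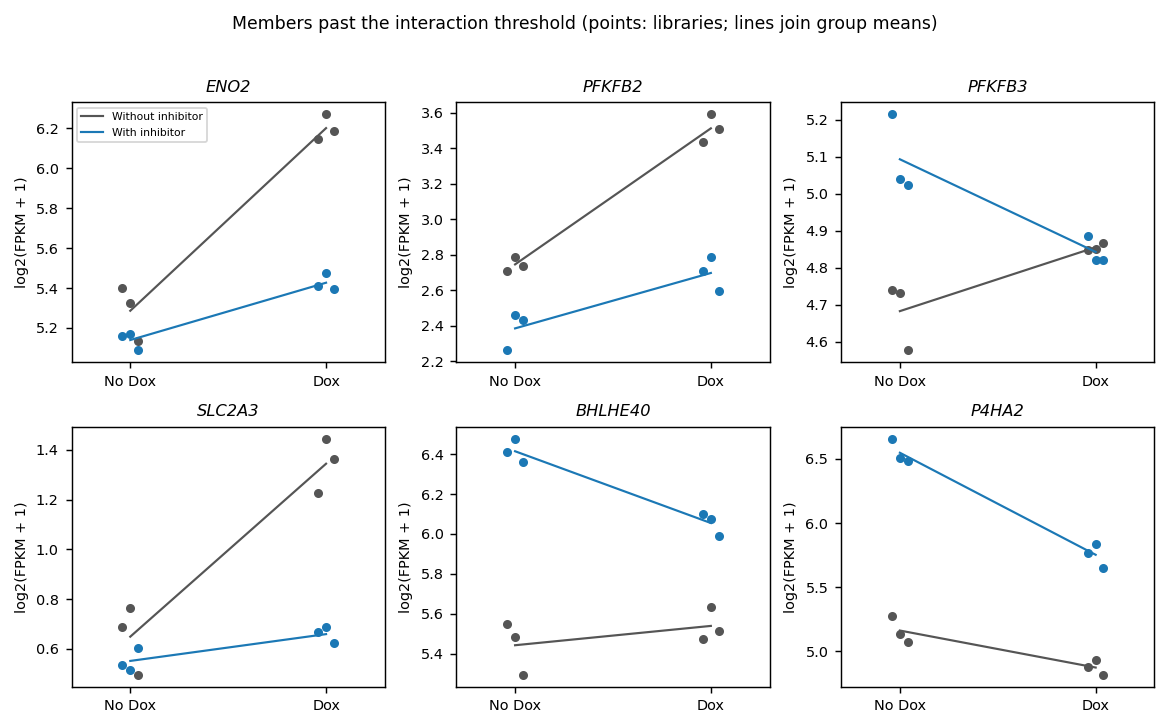
Log2(FPKM + 1) in each library for the 5 members with a called interaction and SLC2A3, without and with Dox (points are libraries, lines join group means, and the vertical axes do not start at 0). In ENO2 the line without inhibitor climbs by 0.92 and the line with it by 0.29, and in P4HA2 the line with inhibitor drops by 0.79.

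Among the glycolytic enzymes, ENO2 (chromosome 12, 6913745 to 6923698, plus strand, GRCh38) had the largest change with Dox. It stood at 41.2, 39.1 and 34.1 FPKM in vehicle, at 69.9, 76.3 and 71.8 with Dox, at 34.7, 35.01 and 33.02 with the inhibitor and at 41.5, 43.5 and 41.1 with both. The 3 Dox libraries were above all 9 others, and the values with both overlapped those of vehicle only at their lower edge. ENO2 rose by 0.92 ± 0.07 (SE) with Dox (adjusted p = 5.45e-06) and by 0.29 ± 0.07 with Dox in the presence of the inhibitor (adjusted p = 0.0155), a call that ended without Dox plus inhibitor 2 (0.26) and after median-ratio scaling (0.21). In Dox-treated cells the inhibitor lowered it (-0.78 ± 0.07, adjusted p = 7.95e-06). ENO1, which encodes the common enolase, stayed between 1207 and 1573 FPKM and was called in 0 of the 5 comparisons. ENO2 made up 2.60% ± 0.10 (SD, n = 3) of the enolase FPKM in vehicle and 4.98% ± 0.19 with Dox, so ENO1 remained the main enolase RNA.

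The 3 phosphofructokinase genes, whose products form the main control step of glycolysis, moved apart. PFKM (chromosome 12, 48105139 to 48146404, plus strand) stood at 31.5, 29.1 and 28.6 FPKM in vehicle, 46.2, 44.99 and 40.99 with Dox, 25.7, 23.3 and 23.2 with the inhibitor and 32.0, 29.9 and 28.0 with both. Its Dox libraries were above all others and its inhibitor libraries below all others. PFKM rose by 0.55 ± 0.07 with Dox (adjusted p = 0.00026) and by 0.30 ± 0.07 with Dox and inhibitor (adjusted p = 0.0136, a call that ended without inhibitor 2, at 0.28), and it fell with the inhibitor by 0.30 ± 0.07 without Dox (ended by median-ratio scaling, at -0.18) and by 0.54 ± 0.07 with it.

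PFKP (chromosome 10, 3066333 to 3137712, plus strand) stood at 134.9, 122.1 and 113.3 FPKM in vehicle, 113.9, 120.1 and 118.4 with Dox, 215.7, 194.5 and 189.9 with the inhibitor and 179.8, 159.4 and 157.5 with both. Every inhibitor-treated library was above every library without it. PFKP rose with the inhibitor by 0.69 ± 0.08 without Dox (adjusted p = 4.27e-05) and by 0.49 ± 0.08 with Dox (adjusted p = 0.000593). Its fall with Dox in the presence of the inhibitor (-0.27, adjusted p = 0.0326) ended without any 1 of DMSO 2, inhibitor 1 or 2, or Dox plus inhibitor 2 or 3 (-0.29 to -0.22). The liver-type gene PFKL lay between 30.6 and 38.7 FPKM and was called in 0 comparisons. PFKP made up 66.3% ± 0.7 of the phosphofructokinase FPKM in vehicle, 59.4% ± 1.2 with Dox, 77.7% ± 0.3 with the inhibitor and 72.0% ± 0.3 with both (SD, n = 3), and PFKM 16.01%, 22.3%, 9.35% and 13.03%.

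GAPDH, the enzyme that makes the first energy-rich intermediate and a common reference gene, stood at 3682, 3334 and 3180 FPKM in vehicle, 3580, 3750 and 3444 with Dox, 2606, 2246 and 2143 with the inhibitor and 2807, 2617 and 2544 with both. All 6 inhibitor-treated libraries were below the 6 others. GAPDH fell with the inhibitor by 0.55 ± 0.08 without Dox (adjusted p = 0.000389) and by 0.44 ± 0.08 with Dox (adjusted p = 0.002). It was not called for Dox as analysed here (0.08 without and 0.19 with the inhibitor). Several alternatives called the second of these changes higher, among them a replicate block (0.19) and removal of the length and GC trend (0.22). LDHA, which encodes the muscle-type subunit of lactate dehydrogenase, stood at 664, 670 and 693 FPKM in vehicle, 705, 701 and 660.3 with Dox, 528, 474 and 472 with the inhibitor and 606, 563 and 557 with both. It fell with the inhibitor by 0.46 ± 0.06 without Dox (adjusted p = 0.000114) and by 0.26 ± 0.06 with it (adjusted p = 0.00577), and the groups with and without inhibitor did not overlap. Its rise with Dox in the presence of the inhibitor (0.23, adjusted p = 0.022) ended without any 1 of inhibitor 2 or 3 or Dox plus inhibitor 1 or 2 (0.19 to 0.24), after median-ratio scaling (0.15) and after removal of the length and GC trend (0.07). GAPDH and LDHA have many processed pseudogenes, as do ALDOA, TPI1, PGK1, PGAM1 and ENO1, and how reads were shared among copies is not given in the sources used here, so their levels are uncertain.

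Among the other enzymes, chosen for mention after their values were seen, the hexokinases start the pathway. HK2, the inducible hexokinase whose promoter is printed above, had means of 9.96 FPKM in vehicle, 11.9 with Dox, 8.01 with the inhibitor and 9.82 with both. It rose with Dox by 0.23 without the inhibitor (adjusted p = 0.0125, ended without Dox 2 at 0.21, without all replicates numbered 1 at 0.22 and by quantile normalization at 0.15) and by 0.27 with it (ended by quantile normalization, at 0.16), and fell with the inhibitor by 0.28 and 0.25, calls that median-ratio scaling brought to -0.18 without Dox and that quantile normalization ended in the Dox-treated cells (-0.17). HK1, the widely expressed hexokinase, fell with the inhibitor (-0.38, from a mean of 63.3 to 48.4 FPKM), as it did in Dox-treated cells (-0.34, 70.9 to 55.8). LDHB, the heart-type subunit of lactate dehydrogenase, fell with the inhibitor by 0.20 in both settings, calls that median-ratio scaling ended (-0.08 and -0.12). Removal of the length and GC trend brought the LDHB fall without Dox to -0.04. Its rise of 0.14 with Dox stood at 0.04 without that trend and at 0.29 after quantile normalization, and ended when any 1 of 10 libraries was left out (all but DMSO 3 and inhibitor 1, 0.12 to 0.16). GPI, PFKL, TPI1, PGK1, PGAM1, ENO1 and PKM were called in 0 of the 5 comparisons as analysed here. Quantile normalization called PKM (0.37), PGAM1 (0.25), TPI1 (0.21), PGK1 (0.19) and ENO1 (0.11, from -0.04) higher with Dox. PKM and PGAM1 were also called higher with Dox when replicate number was added to the model (0.22 and 0.15). The same held after removal of the length and GC trend (0.225 and 0.156) and without all replicates numbered 1 (0.31 and 0.21). Removal of that trend also called PFKL (0.16) higher with Dox. Some alternatives called GPI, PGK1, PGAM1, ENO1 or PKM in other comparisons. ALDOA was called in 1 of the 5 comparisons, a fall with the inhibitor without Dox (-0.27). That call ended without DMSO 1, inhibitor 2 or inhibitor 3 (-0.24 to -0.21) and after median-ratio scaling (-0.16). In Dox-treated cells its change with the inhibitor was -0.20 and not called (limma, adjusted p = 0.0676). Several alternatives called that fall, among them quantile normalization (-0.24) and removal of the length and GC trend (-0.15). PKM values per gene do not separate its spliced forms.

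**Figure D5:**
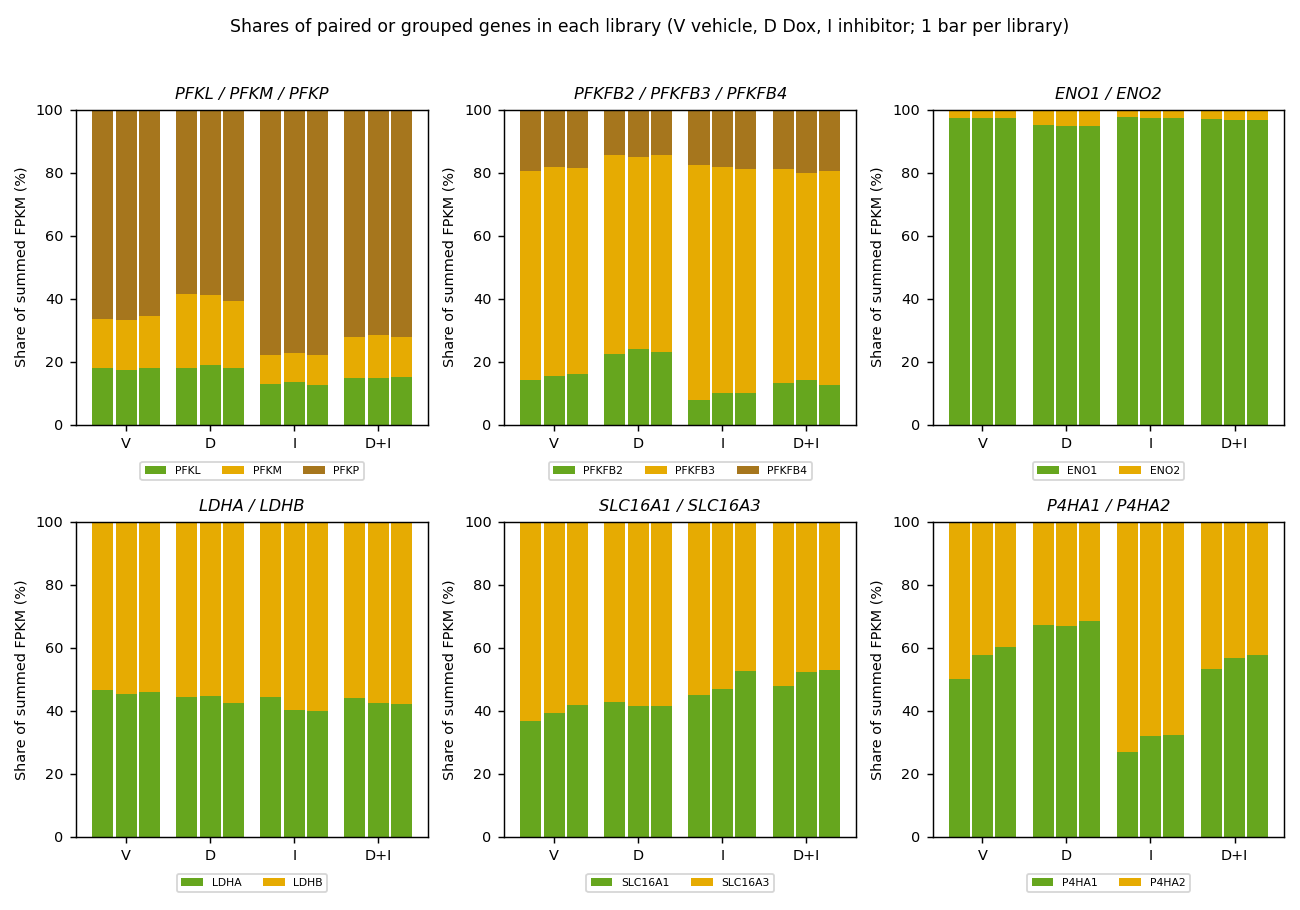
Share of each gene in the summed FPKM of its family, 1 bar per library, for 6 families (V vehicle, D Dox, I inhibitor, D+I both). The PFKP share is highest and the PFKM and PFKFB2 shares lowest with the inhibitor alone, and ENO2 stays at or below 5.11% in every library.

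The PFKFB genes encode enzymes that both make and break down the activator of phosphofructokinase. PFKFB2 (chromosome 1, 207034366 to 207081024, plus strand), the heart and kidney form, stood at 5.55, 5.92 and 5.67 FPKM in vehicle, 9.83, 11.1 and 10.4 with Dox, 3.8, 4.5 and 4.41 with the inhibitor and 5.54, 5.90 and 5.06 with both. The values with both treatments overlapped those of vehicle, and the Dox libraries were above all others. PFKFB2 rose by 0.77 ± 0.08 with Dox (adjusted p = 4.2e-05) and by 0.31 ± 0.08 with Dox and inhibitor (adjusted p = 0.017, ended without inhibitor 1 at 0.25 or Dox plus inhibitor 2 at 0.27, and at 0.19 without the length and GC trend), and fell with the inhibitor by 0.36 ± 0.08 without Dox and by 0.81 ± 0.08 with it (adjusted p = 1.18e-05). PFKFB3, the inducible form with the strongest bias to making the activator, stood at 25.7, 25.6 and 22.9 FPKM in vehicle, 27.8, 27.9 and 28.2 with Dox, 36.2, 31.9 and 31.6 with the inhibitor and 28.6, 27.3 and 27.3 with both. Its inhibitor libraries were above all others and its vehicle libraries below. PFKFB3 rose with the inhibitor by 0.41 ± 0.06 without Dox (adjusted p = 0.000489) and stood at -0.01 with Dox, and its fall with Dox in the presence of the inhibitor (-0.25, adjusted p = 0.0218) ended without inhibitor 1, Dox plus inhibitor 2 or Dox plus inhibitor 3 (-0.24 to -0.19). PFKFB4 rose with the inhibitor by 0.22 and 0.25, between 6.27 and 8.44 FPKM in all libraries, and these calls ended without DMSO 2 or 3 (0.17 to 0.22) and without Dox 1 or Dox plus inhibitor 2 (0.23). PFKFB2 took 15.3% ± 1.0 of the FPKM of the 3 genes in vehicle, 23.2% ± 0.9 with Dox, 9.30% ± 1.26 with the inhibitor and 13.3% ± 0.8 with both (SD, n = 3).

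Among the transporters, SLC2A1, the main glucose carrier of most cells, stood at 109.5, 100.1 and 96.7 FPKM in vehicle, 81.7, 89.0 and 81.6 with Dox, 128.0, 115.7 and 109.8 with the inhibitor and 100.6, 104.2 and 99.6 with both. The Dox libraries were below all others, and the values with both lay among those of vehicle. SLC2A1 fell by 0.28 ± 0.07 with Dox (adjusted p = 0.0158), which was lost without DMSO 1, Dox 1 or Dox 3 (-0.26 to -0.22). It stood at -0.21 with Dox and inhibitor (adjusted p = 0.0514). Several alternatives called the latter change lower, among them median-ratio scaling (-0.29) and removal of the length and GC trend (-0.20). With the inhibitor SLC2A1 rose by 0.20 ± 0.07 without Dox and by 0.27 ± 0.07 with Dox. The call without Dox ended without DMSO 2 or 3 or inhibitor 1 or 2 (0.14 to 0.22) and stood at 0.32 after median-ratio scaling. SLC2A3, a high-affinity glucose carrier, was close to the detection limit at 0.61, 0.70 and 0.41 FPKM in vehicle, 1.34, 1.72 and 1.57 with Dox, 0.45, 0.43 and 0.52 with the inhibitor and 0.59, 0.61 and 0.54 with both. Its 3 Dox libraries were above the 9 others, as its filter required, and reads may be shared with the near-identical SLC2A14. SLC2A3 made up 0.56% of the FPKM of these 2 carriers in vehicle and 1.80% with Dox.

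The lactate exporter SLC16A3 (chromosome 17, 82228397 to 82261129, plus strand), typical of glycolytic cells, stood at 88.5, 80.9 and 77.0 FPKM in vehicle, 74.4, 77.5 and 77.8 with Dox, 58.0, 54.3 and 46.8 with the inhibitor and 58.5, 52.0 and 50.6 with both. All 6 inhibitor-treated libraries were below the 6 others. SLC16A3 fell with the inhibitor by 0.62 ± 0.08 without Dox (adjusted p = 0.000183) and by 0.51 ± 0.08 with Dox (adjusted p = 0.000896) and was not called for Dox. SLC16A1, the more widely expressed lactate carrier, kept to 47.8 to 57.2 FPKM, and its one call, a rise of 0.18 with Dox in the presence of the inhibitor, was lost when DMSO 2, any Dox library, inhibitor 1 or 2, or Dox plus inhibitor 2 or 3 was left out and stood at 0.01 after removal of the length and GC trend. SLC16A3 took 60.7% ± 2.6 of the FPKM of these 2 carriers in vehicle, 58.1% ± 0.8 with Dox, 51.8% ± 3.9 with the inhibitor and 48.9% ± 2.8 with both (SD, n = 3).

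Of the HIF factors, EPAS1 (chromosome 2, 46293667 to 46386703, plus strand) changed in all 4 pairwise comparisons. It stood at 71.1, 66.8 and 63.4 FPKM in vehicle, 98.4, 102.8 and 100.04 with Dox, 82.4, 82.5 and 80.1 with the inhibitor and 124.5, 128.3 and 125.5 with both. The 4 groups did not overlap, and vehicle was lowest and the combination highest. EPAS1 rose with Dox by 0.58 ± 0.05 without the inhibitor (adjusted p = 1.48e-05) and by 0.62 ± 0.05 in its presence (adjusted p = 2.03e-05). It rose with the inhibitor by 0.28 ± 0.05 without Dox (adjusted p = 0.00103) and by 0.33 ± 0.05 with Dox (adjusted p = 0.000455), and its interaction was 0.04 ± 0.07 (adjusted p = 0.872).

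HIF1A, the subunit best known for driving glycolytic genes, stood at 94.3, 155.2 and 184.6 FPKM in vehicle, 175.9, 177.9 and 199.5 with Dox, 74.3, 132.0 and 153.9 with the inhibitor and 137.3, 174.8 and 180.6 with both. The library numbered 1 was the lowest in each group, and the groups overlapped. HIF1A did not pass the threshold in the 5 comparisons of all 12 libraries (0.40 ± 0.27 with Dox, adjusted p = 0.337, and 0.50 ± 0.27 with Dox and inhibitor, adjusted p = 0.203). Without the libraries numbered 1 these Dox changes were 0.15 (adjusted p = 0.321) and 0.32 (adjusted p = 0.0494), the second of which passed it. The oxygen-sensing hydroxylase gene EGLN1 stood at 10.9, 11.2 and 11.8 FPKM in vehicle, 12.2, 12.5 and 13.3 with Dox, 10.1, 10.4 and 10.2 with the inhibitor and 11, 13.5 and 12.97 with both. Its one call, a rise of 0.26 with Dox in the presence of the inhibitor (adjusted p = 0.0307), ended without any 1 of inhibitor 1 to 3 or Dox plus inhibitor 2 or 3 (0.21 to 0.27) and stood at 0.01 without the length and GC trend. VHL, the substrate receptor that removes HIF alpha proteins, stood at 12.1, 12.3 and 11.7 FPKM in vehicle, 11.9, 10.9 and 12.4 with Dox, 14.0, 12.4 and 13.1 with the inhibitor and 11.9, 12.8 and 12 with both, and was not called as analysed here. Its change of 0.12 with the inhibitor without Dox became a called rise after median-ratio scaling (0.23, adjusted p = 0.0162), quantile normalization (0.21, adjusted p = 0.0376) and removal of the length and GC trend (0.20, adjusted p = 0.0257).

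Of the 10 hypoxia-responsive genes, the collagen prolyl hydroxylases P4HA1 and P4HA2, which modify procollagen in the endoplasmic reticulum, moved apart. P4HA2 (chromosome 5, 132191838 to 132295315, minus strand) stood at 37.7, 34.2 and 32.8 FPKM in vehicle, 28.4, 29.5 and 27.2 with Dox, 99.8, 89.8 and 88.3 with the inhibitor and 53.6, 56.1 and 49.3 with both. The 4 groups did not overlap, with Dox lowest and the inhibitor alone highest. P4HA2 rose with the inhibitor by 1.38 ± 0.07 without Dox (adjusted p = 1.53e-07) and by 0.88 ± 0.07 with Dox (adjusted p = 4.87e-06), and fell with Dox by 0.79 ± 0.07 in the presence of the inhibitor (adjusted p = 5.1e-05). Its fall with Dox alone (-0.29 ± 0.07, adjusted p = 0.0166) ended without DMSO 1, Dox 1 or Dox 3 (-0.29 to -0.23).

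P4HA1 (chromosome 10, 73007217 to 73096974, minus strand) stood at 37.9, 46.5 and 49.3 FPKM in vehicle, 58.5, 59.9 and 59.3 with Dox, 36.8, 42.4 and 42.0 with the inhibitor and 61.01, 73.3 and 67.1 with both. All Dox-treated libraries were above all libraries without Dox. P4HA1 rose with Dox by 0.41 ± 0.10 without the inhibitor (adjusted p = 0.0136) and by 0.72 ± 0.10 in its presence (adjusted p = 0.000785). These 2 Dox changes fell to 0.20 and 0.44 after removal of the length and GC trend. P4HA2 took 44.1% ± 5.2 of the FPKM of P4HA1 and P4HA2 in vehicle, 32.4% ± 0.8 with Dox, 69.6% ± 3.0 with the inhibitor and 44.2% ± 2.3 with both (SD, n = 3). KDM3A is a histone demethylase known as a HIF target and was named here after its values were seen. Without the inhibitor it rose with Dox from 24.0 to 31.5 FPKM (0.38, adjusted p = 0.00661). Dox also raised KDM3A in inhibitor-treated cells, from 20.9 to 28.95 FPKM (0.46, adjusted p = 0.00348). The latter change was 0.25 without the length and GC trend.

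NDRG1, a stress and differentiation gene, stood at 9.13, 8.76 and 7.85 FPKM in vehicle, 12.7, 12.8 and 13.7 with Dox, 10.3, 9.10 and 8.69 with the inhibitor and 10.6, 9.69 and 10.5 with both. The Dox libraries were above all others, and the inhibitor libraries overlapped both vehicle and the combination. NDRG1 rose by 0.55 ± 0.08 with Dox (adjusted p = 0.000424), stood at 0.12 ± 0.08 with Dox and inhibitor (adjusted p = 0.248), and had an interaction of -0.43 ± 0.11 that missed the threshold (adjusted p = 0.0599). The NDRG1 interaction passed after median-ratio scaling (-0.46, adjusted p = 0.0416), after removal of the length and GC trend (-0.42, adjusted p = 0.00655) and without DMSO 1 (-0.47, adjusted p = 0.0444). With Dox the inhibitor lowered it (-0.32, adjusted p = 0.00776, ended by quantile normalization at -0.24). BHLHE40, a transcriptional repressor of the clock and hypoxia responses, stood at 45.9, 43.7 and 38.2 FPKM in vehicle, 43.5, 48.6 and 44.6 with Dox, 83.9, 88.0 and 81.1 with the inhibitor and 67.5, 66.5 and 62.6 with both. Vehicle and Dox overlapped, and every inhibitor-treated library was higher, with the inhibitor alone highest. BHLHE40 rose with the inhibitor by 0.97 ± 0.07 without Dox (adjusted p = 2.14e-06) and by 0.52 ± 0.07 with it (adjusted p = 0.000268), and fell with Dox in the presence of the inhibitor (-0.36, adjusted p = 0.00689).

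DDIT4, an inhibitor of mTORC1 induced by low oxygen and other stresses, stood at 36.9, 30.3 and 30.8 FPKM in vehicle, 36.4, 38.7 and 36.9 with Dox, 21.2, 20.2 and 19.3 with the inhibitor and 26.8, 23.8 and 22.2 with both. The inhibitor-treated libraries were below all others. DDIT4 fell with the inhibitor by 0.66 ± 0.08 without Dox (adjusted p = 0.00013) and by 0.61 ± 0.08 with it (adjusted p = 0.000276). ADM, the gene of the vasodilator peptide adrenomedullin, named after its values were seen, had means of 4.13 FPKM in vehicle, 5.94 with Dox, 3.17 with the inhibitor and 4.22 with both. It rose with Dox by 0.44 (adjusted p = 0.0115), a call that ended without DMSO 2 (0.35) and after quantile normalization (0.33), and its rise of 0.33 with Dox and inhibitor ended without any 1 of 9 libraries (all but DMSO 1, DMSO 2 and inhibitor 1). It fell with the inhibitor by 0.41 with Dox and by 0.30 without it, the latter ending without any 1 of 7 libraries (DMSO 1 or 3, Dox 2 or 3, inhibitor 2 or 3, Dox plus inhibitor 3). ANKRD37 lay between 1.76 and 4.21 FPKM and was called in 0 comparisons.

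Other genes of these pathways were read from lists compiled with earlier results in view. Their counts stand beside all-gene shares of 10.6% higher and 7.31% lower with Dox, 12.2% and 6.06% with Dox and inhibitor, 11.7% and 26.3% with the inhibitor, and 11.3% and 20.8% with the inhibitor in Dox-treated cells. Of 25 tested genes of glucose handling outside the module, 7 were higher and 4 lower with Dox, 5 and 3 with Dox and inhibitor, 3 and 7 with the inhibitor, and 3 and 7 with the inhibitor in Dox-treated cells. PDK1, a kinase that inactivates pyruvate dehydrogenase, rose with Dox by 0.55 and 0.61 and fell with the inhibitor by 0.48 and 0.42. MPC1, a subunit of the mitochondrial pyruvate carrier, fell with the inhibitor by 0.75 and 0.91. HKDC1, a hexokinase domain protein, fell with the inhibitor by 0.81 and 0.75 (61.1 to 34.4 FPKM without Dox), while the glucose carrier gene SLC2A6 rose by 0.90 and 1.01. PDP1, which reverses the PDK reaction, rose with the inhibitor by 0.98 without Dox (27.0 to 54.3 FPKM) and had an interaction of -0.81 (adjusted p = 0.00661). Of 5 tested genes of gluconeogenesis and related steps 2 were higher and 2 lower with the inhibitor in each setting, and PC (pyruvate carboxylase) fell with the inhibitor by 1.07 and 0.85. Of 8 glycogen genes 3 were higher and 2 lower with Dox and inhibitor and 1 was higher with Dox alone, and PPP1R3B, which targets a phosphatase to glycogen, rose with the inhibitor by 1.47 and 1.08 (21.1 to 60.1 FPKM without Dox).

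Against the same all-gene shares, of 13 tested HIF regulators outside the module 1 was called with Dox (SIAH2, -0.32, lost without DMSO 1, DMSO 2, Dox 2 or Dox 3), 3 were higher and 1 lower with Dox and inhibitor, 1 and 5 with the inhibitor, and 1 and 3 with the inhibitor in Dox-treated cells. SIAH2, a ubiquitin ligase that acts on EGLN enzymes, rose with the inhibitor by 0.69 and 0.74, and CITED2, which competes with HIF for the coactivators CREBBP and EP300, fell by 0.69 and 0.49. Of 29 other hypoxia-responsive genes 6 were higher and 3 lower with Dox, 8 and 4 with Dox and inhibitor, 10 and 9 with the inhibitor, and 9 and 10 with the inhibitor in Dox-treated cells. HMOX1, the haem-degrading enzyme that also answers to oxidative stress, changed with Dox by 0.57 without the inhibitor and by -0.65 with it, an interaction of -1.23 (adjusted p = 4.99e-05). BHLHE41, the paralogue of BHLHE40, changed with Dox by 0.67 without and by -0.50 with the inhibitor (interaction -1.17, adjusted p = 0.000537), from means of only 0.57 to 3.25 FPKM. With a pseudocount of 0.25 the first of these changes was 1.10. KDM4C, a histone demethylase, rose with Dox by 0.60 and 0.45. Of 6 tested genes of the MondoA and MYC group 1 was higher and 2 lower in each Dox comparison, and 1 was higher with the inhibitor in each setting, with 3 lower without and 4 lower with Dox. MYC fell with Dox by 0.74 and 0.56 and rose with the inhibitor by 0.57 and 0.75, and TXNIP, an inhibitor of glucose uptake, fell with the inhibitor by 1.19 and 0.63.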

How the data were processed

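RNA of 12 HK-2 libraries, 3 in each of 4 groups, was measured by stranded poly(A) sequencing, per the labels' protocols. The authors deposited FPKM per gene symbol. Salmon 1.9.0, Trim Galore 0.6.7, hg38 and GRCh38.p13 are listed in the submitters' processing notes, while the annotation, the summing to genes and the use of strand were not given in the sources used here. Columns were assigned to samples by name and groups came from the labels. Values were analysed as log2(FPKM + 1) for genes with FPKM of at least 1 in at least 3 libraries (12649 of 26334). Group means of all 12 libraries were fitted with limma 3.58.1 in R 4.3.3 (intensity trend, 8 residual degrees of freedom), tested on simulated data, with Benjamini-Hochberg adjustment over all tested genes. The p-values measure the spread between these libraries. Members, gene lists and tests were chosen with earlier results of these data known. Values per library are given for members called with an absolute log2 change of at least 0.5 and for HIF1A, EPAS1, EGLN1, VHL, SLC2A1, LDHA and GAPDH, and for PFKFB3, chosen after its values were seen. From each pathway list, at most the 4 largest called changes per comparison were eligible to be named. The labels call the replicates independent, so the numbers were not taken as pairs in the main model. Same-numbered libraries correlated between groups from -0.09 to 0.69 (18 pairs), and a block for replicate number was among the alternatives. Alternatives were another pseudocount (0.25), other filters, scalings and covariates, and leaving out libraries. Gene coordinates are those of GENCODE on GRCh38 and promoters those of RefSeq.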

Additional observations from a re-analysis of the deposited data

Results flagged for a closer look

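For 6 members the change with Dox differed between cells with and without the inhibitor by the test of the difference itself (limma, adjusted over all genes). Without SLC2A3 these were 5 of 34 tested members, all negative, against 2.82% of all tested genes in either direction and 1.91% negative. The Dox change with the inhibitor minus that without it was -0.63 for ENO2, -0.59 for SLC2A3, -0.51 for P4HA2, -0.46 for BHLHE40, -0.45 for PFKFB2 and -0.42 for PFKFB3, all on the log2(FPKM + 1) scale. TFE3 itself had a difference of -0.47. SLC2A3 lay below 1 FPKM in every group but Dox and was tested only through those libraries, so its difference was built into the filter and is a description. The ENO2 difference passed the test in all 22 alternatives, and each of the other 5 lost its call when single libraries were left out.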

How the results depend on the processing

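Among the members with values per library, PFKFB3 left out, no value changed sign past the threshold under the 23 alternatives. The interaction had 22, because it needs all 4 groups and could not be fitted on only the groups compared. Of the values of these members under an alternative, 1901 kept their side of the threshold, 88 lost a call and 58 gained one. Outside this set, ENO1 went from -0.04 with Dox to a called 0.11 after quantile normalization. Calls that held throughout were 8 of 13 for Dox, 5 of 15 for Dox with inhibitor, 12 of 18 for the inhibitor, 14 of 19 for the inhibitor with Dox and 1 of 6 for the interaction. The count for Dox with inhibitor was 24 with a replicate block (36% of all genes called, against 18.2% as analysed). It was 8 on only the groups compared (8.69% of all genes) and 7 to 18 with single libraries left out. The count for the interaction was 10 with a replicate block and the length and GC trend removed (9.07% of all genes called, against 2.82% as analysed). With single libraries left out it was 1 to 5. With the replicate block alone the counts were 17 for Dox, 22 for the inhibitor, 21 for the inhibitor with Dox and 8 for the interaction. In that order the block called 29.6%, 48.8%, 41.4% and 5.27% of all genes, against 17.9%, 38%, 32.1% and 2.82% as analysed. The block called HIF1A for Dox with inhibitor (0.50, adjusted p = 0.0271). Of 18 pairs of same-numbered libraries 9 correlated above 0.1, and 8 of 12 libraries correlated best with their own number, a hint from the data and not from the design. Over all genes the block raised the calls for Dox from 2269 to 3741, for Dox with inhibitor from 2304 to 4548 and for the interaction from 357 to 666, and leaving out single libraries gave 1427 to 2665, 1121 to 2920 and 186 to 420. Absolute depth is unknown, so no counting limit can be set for the members near 0.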
